A study of Arabidopsis thaliana with 36 samples.

Results

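The transcript levels of the *uvr8-6* mutant were compared with those of the wild type (Col) under +FR+UVB, that is, white light with low R:FR and UV-B given together. The comparison rests on 6 of the 36 libraries of the series, the 3 of *uvr8* and the 3 of the wild type in that light, and was chosen by genotype and light alone. It covers the 20926 genes, of 33602 with raw counts, that the authors kept in their table of normalized counts. Both genotypes are in the Col-0 background, and the mutant carries the *uvr8-6* allele of the UV-B receptor gene. Seedlings were 7 days old, were exposed for 3 h at a white light fluence rate of 60 µmol m-2 s-1 and were sampled in pools of 30. The R:FR was 4.7 in white light and 0.05 under the far-red supplement in the growth description (0.08 in the treatment description), and the UV-B supplement was 0.06 mW/cm2. The same genotype difference in white light (WL), with far-red alone (+FR) and with UV-B alone (+UVB), each with 3 libraries a genotype, served to show where +FR+UVB differs.

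UVR8 is the photoreceptor through which plants perceive UV-B. Light converts its dimers to monomers, which bind and inhibit the E3 ubiquitin ligase COP1, so that the bZIP factor HY5 accumulates and turns on genes for flavonoid sunscreens, DNA repair and chloroplast protection. Low R:FR is the signal of neighbouring plants. It inactivates phytochrome B and frees the PIF family of bHLH factors, which switch on auxin synthesis, auxin response and cell wall genes in elongating seedlings. Seedlings that receive both signals are therefore exposed to a sunscreen program and to a shade program at the same time, and the mutant shows what remains when the UV-B receptor is missing.

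The 6 libraries held 17449559 to 21074908 counts each, and the detection floor, set at 3 counts, corresponded to 0.128 to 0.197 CPM. CPM stands here for counts scaled to a common library size with the TMM factors of edgeR. Pearson correlations of log2 CPM across genes were 0.988 to 0.99 among the wild-type libraries and 0.989 between replicates 1 and 2 of *uvr8*, against 0.971 to 0.977 for replicate 3 of *uvr8* with these. Replicate 3 of *uvr8* thus stood apart from its group, and calls of named genes that change without it are given beside the result. Between the genotypes the correlations were 0.935 to 0.948. Nothing in the labels says that the samples of a group came from separate sowings, so the p-values measure the spread between samples within groups. That spread was estimated over all 36 libraries in 12 groups, not over these 6 alone.

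A gene was called when it differed by more than 2-fold with an adjusted p under 0.05 in the quasi-likelihood test of edgeR. Adjusted p-values throughout are Benjamini-Hochberg values of that test over all genes. SE stands for the size of the log2 fold change divided by the square root of the F statistic of that test. Under +FR+UVB, 1264 genes were lower in *uvr8* (6.04% of those tested) and 1340 were higher (6.4%). These 2604 genes were 12.4% of all genes. The losses were the deeper ones: 357 of the genes that fell and 278 of those that rose did so by more than 4-fold, and 134 and 80 by more than 8-fold. Without the fold criterion, 4875 genes were lower and 4959 higher, 47% of the genes tested. The libraries of the 2 groups did not overlap at 2542 of the called genes (97.6%), while over all genes this held for 11030 (52.7%).

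The genes that fell took a large share of the wild-type RNA. They made up 19.4%, 19.5% and 19.6% of the counts in the wild-type libraries and 5.97%, 5.81% and 6.3% in *uvr8*. The genes that rose held 1.22%, 1.34% and 1.26% of the counts in the wild type and 4.29%, 4.32% and 4.33% in *uvr8*. The TMM factors were 0.875 to 0.889 in the wild type and 1.03 to 1.13 in *uvr8*, and the median log2 fold change of all genes was 0.017. Scaled to total counts alone, the median was 0.307 and the split became 812 lower and 2481 higher, so that 75.3% of the called genes were higher instead of 51.5%. Without replicate 3 of *uvr8*, 1279 genes were lower and 1266 higher, of which 1124 and 1104 were among the genes called with all libraries.

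**Figure D1:**
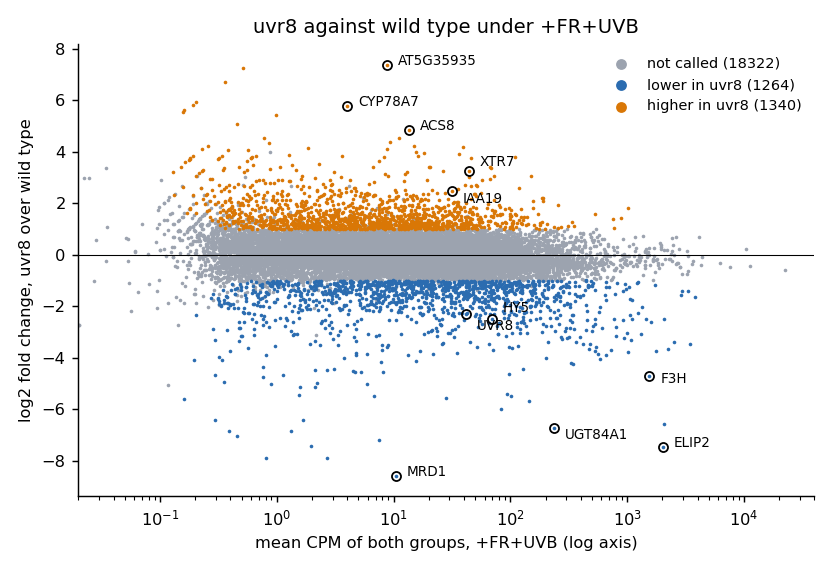
Log2 fold change of *uvr8* over wild type under +FR+UVB against the mean CPM of both groups (log axis), 1 point per gene, with called genes in colour and some of the genes described in the text circled. The 1264 genes that were lower in *uvr8* reach to high CPM, where *ELIP2* and *F3H* lie, while the 1340 that were higher lie mostly at low and middle CPM.

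The mutated gene itself was checked first. *UVR8* (AT5G63860, chromosome 5, 25554416 to 25559499, TAIR10.1) stood at 68.3, 75.1 and 66.2 CPM in the wild type and at 15.6, 14.5 and 12.2 CPM in *uvr8*. The groups did not overlap, and the difference was 4.95-fold (log2 fold change -2.31, SE 0.0859, adjusted p = 1.19e-18). It was of similar size in WL (-2.55), +FR (-2.82) and +UVB (-2.44). Some reads therefore remained on the mutant gene in every library, and the gene-wise counts do not show which part of it they came from.

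The light condition decided how many other genes differed. In WL 12 genes were lower (0.0573%) and 10 higher (0.0478%) in *uvr8*, and under +FR 11 were lower (0.0526%) and 15 higher (0.0717%). Under +UVB 1236 genes were lower (5.91%) and 1482 higher (7.08%), close to the counts under +FR+UVB. The difference between genotypes was itself tested against that under +FR: 3555 genes (17%) had a more negative and 3440 (16.4%) a more positive genotype difference in the combined light (adjusted p under 0.05). Of the genes called lower under +FR+UVB, 1009 (79.8%) passed that test in the same direction, and of those called higher 1014 (75.7%).

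**Figure D2:**
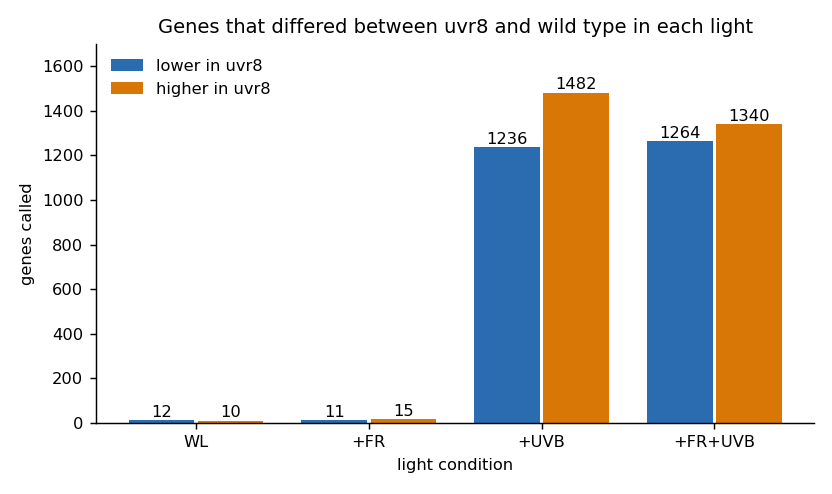
Number of genes called lower and higher in *uvr8* than in the wild type in each light condition, with 3 libraries per group. The bars of WL and +FR hold 10 to 15 genes, and those of +UVB and +FR+UVB hold 1236 to 1482.

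The genes that fell the most included transcripts that were still detected in *uvr8*. *ELIP2* and *ELIP1*, early light-induced proteins that protect the chloroplast under excess light, were abundant in the wild type. *ELIP2* stood at 4200, 3670 and 4160 CPM in the wild type and at 18.2, 15 and 35.0 CPM in *uvr8* (log2 fold change -7.46, SE 0.335, adjusted p = 8.02e-17). *ELIP1* stood at 4300, 3490 and 4430 CPM in the wild type and at 36.4, 29.9 and 62.1 CPM in *uvr8* (log2 fold change -6.57, SE 0.274, adjusted p = 1.55e-17). In both genes replicate 3 was the highest of the mutant libraries and still lay far below every wild-type library. *UGT84A1*, a glucosyltransferase that acts on hydroxycinnamates such as sinapate, went from 469, 491 and 450 CPM to 3.61, 4.89 and 4.65 CPM, a difference of 107-fold (SE 0.186 on the log2 scale, adjusted p = 9.12e-21). AT2G22590, a UDP-glycosyltransferase family member, went from 145, 179 and 169 CPM to 1.98, 3.38 and 2.35 CPM (log2 fold change -6.0), and AT3G23510, annotated as a cyclopropane-fatty-acyl-phospholipid synthase, from 295, 281 and 263 CPM to 7.31, 5.52 and 3.46 CPM (-5.69).

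Other large falls rested on a handful of mutant reads, and there the ratio is given with its counting interval (95%, exact). *SDH2-3*, a succinate dehydrogenase subunit, had 1, 3 and 2 counts in the *uvr8* libraries and 765 counts in the wild type as a whole, a ratio of 156 (71.1 to 425). AT1G64340, annotated as a serine/threonine kinase, had 1 count in *uvr8* and 275 in the wild type, a ratio of 335 (59.7 to 13300). For AT1G11230, annotated with a domain of unknown function, these counts were 1 and 201, with a ratio of 245 (43.5 to 9730). For the cytochrome P450 pseudogene *CYP79A3P* they were 2 and 170, with a ratio of 104 (28.3 to 863). Such ratios say that the transcript was close to absent in the mutant, not how close. The intervals cover counting error alone.

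Largest of all was the fall of *MRD1* (AT1G53480), with 3 counts in *uvr8* and 1084 in the wild type (ratio 441, interval 150 to 2140). It was lower in every light, at fitted log2 fold changes of -8.58 under +FR+UVB, -7.14 in WL, -6.51 under +FR and -6.76 under +UVB. Tested between lights, the *MRD1* difference under +FR+UVB differed by -2.07 from that under +FR (adjusted p = 0.0273) and did not pass against +UVB (adjusted p = 0.37), and with 3 mutant counts these fitted values are imprecise. *MRD1* lies on chromosome 1 from 19963047 to 19964712 (TAIR10.1) and overlaps *HEI10* (19963267 to 19966952), a gene of meiotic crossover formation, and the annotated long non-coding RNA AT1G07887. *HEI10* was called lower in all 4 lights as well, with a log2 fold change of -2.15 under +FR+UVB. The strand setting of the read counting is not given in the sources used here, so reads of the overlapping genes cannot be told apart.

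Genes called in the same direction in all 4 lights numbered 9. The genes that were lower were *UVR8*, *MRD1* and *HEI10*. Higher in all were AT5G35935, AT2G01755, AT1G06360, *SADHU3-2*, *TCP17* and AT5G28335. AT5G35935, a pseudogene, showed the largest rise under +FR+UVB, from 0.0, 0.0562 and 0.216 CPM to 17.4, 14.7 and 20.1 CPM (log2 fold change 7.39, SE 0.274, adjusted p = 1.1e-18). Its rise in WL was 5.31. The wild-type values of AT5G35935 under +FR+UVB lay near the detection floor, so its fold is imprecise whatever the SE. AT1G06360, a fatty acid desaturase family member, rose by 1.18 and lost its call without replicate 3 of *uvr8* (0.94), and the TCP factor *TCP17* rose by 1.16 and lost its call without wild-type replicate 3 (0.95). These genes differed between the lines whatever the light.

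The genes of the UVR8 pathway itself were lower in the mutant. Of 10 genes listed for it, 5 were called lower and 0 higher (6.04% and 6.4% over all genes), with a median log2 fold change of -1.59. All 10 were lower at an adjusted p under 0.05, as were 4875 of the 20926 genes tested. The list includes *UVR8* itself, which was lower in every light, and without it 4 of 9 were called lower (median -0.97). *RUP1* (-3.48) and *RUP2* (-3.14), whose products return UVR8 to its inactive dimer and so close a negative feedback loop, fell the most. *RUP1* was at 126, 119 and 114 CPM in the wild type and at 12.4, 10.8 and 9.18 CPM in *uvr8*. *HY5*, the bZIP factor at the centre of the response, was at 121, 109 and 123 CPM in the wild type and at 20, 25.2 and 16.8 CPM in *uvr8* (log2 fold change -2.51, SE 0.142, adjusted p = 1.57e-14). Its homologue *HYH* was at 178, 156 and 164 CPM and at 37.8, 39.4 and 30.4 CPM. None of these groups overlapped, as was so for 52.7% of all genes. *COP1* stayed just under the fold criterion (log2 fold change -0.97, SE 0.0655, adjusted p = 7.49e-13), and passed it without replicate 1 of *uvr8* (-1.03).

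B-box factors went both ways. Of 10 tested, 3 were lower and 2 higher, where 6.04% and 6.4% of all genes were. Those that fell were *BBX31* (-2.62), *BBX30* (-2.09) and *BBX22* (-2.0). *BBX22*, which works together with HY5, went from 142, 158 and 127 CPM to 35.6, 39.0 and 32.1 CPM. *BBX21*, another partner of HY5, rose from 38.8, 43.7 and 38 CPM to 108, 75.0 and 83.3 CPM (log2 fold change 1.14), and fell short of the 2-fold criterion without replicate 1 of *uvr8* (0.97). *BBX23* rose from 1 count in all the wild-type libraries to 56 in those of *uvr8*, a ratio of 45.9 with an interval of 7.91 to 1850. The only B-box gene whose genotype difference was tested to differ between the UV-B lights was *BBX29*, at -0.87 under +FR+UVB and -2.14 under +UVB (adjusted p = 0.0385 for the difference).

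Flavonoid synthesis was lower throughout. All 18 enzymes tested were called lower in *uvr8*, at a median log2 fold change of -3.76 and a range of -5.4 to -2.23, where 6.04% of all genes were called lower and the median of all genes was 0.017. Together they held 19200 to 20400 CPM in the wild-type libraries and 1620 to 1900 CPM in those of *uvr8*. *F3H*, the flavanone 3-hydroxylase, stood at 2840, 2980 and 3110 CPM in the wild type and at 112, 96.5 and 130 CPM in *uvr8* (log2 fold change -4.72, SE 0.206, adjusted p = 4.4e-17). *GSTF12*, needed to carry anthocyanins into the vacuole, showed the largest fall of the list, from 185, 164 and 205 CPM to 4.25, 3.7 and 5.12 CPM (-5.4). *F3PH* (*TT7*), which hydroxylates the flavonoid B ring, went from 233, 235 and 260 CPM to 12, 11.9 and 10.1 CPM. *UGT78D3* (-4.54), *UGT79B1* (-4.42) and *5MAT* (AT3G29590, -4.54) encode enzymes that add sugars or acyl groups. Every wild-type library lay above every mutant library for all 18, while the groups did not overlap at 52.7% of all genes.

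The regulators of these enzymes fell too. Of 9 tested, 6 were lower and 0 higher (6.04% and 6.4% over all genes), at a median of -3.06. *MYB12* (-4.63), *MYB11* (-4.15) and *MYB111* (-3.06), which direct flavonol synthesis, were all lower. *MYB12* went from 181, 197 and 179 CPM to 7.66, 9.58 and 5.38 CPM. The anthocyanin regulators *PAP2* (AT1G66390, -5.49), *TT8* (-3.29) and *PAP1* (-2.55) were lower as well, but *PAP1* varied within both groups, at 12.1, 10.1 and 25.2 CPM in the wild type and 0.988, 0.885 and 5.98 CPM in *uvr8* (SE 0.692, adjusted p = 0.0033). In both genotypes replicate 3 was its highest library.

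Upstream of flavonoids, 12 of 16 phenylpropanoid and sinapate genes were lower and 0 higher (median -2.37), where 6.04% and 6.4% of all genes were. *PAL1* and *PAL2* encode the enzyme that opens the pathway from phenylalanine. *PAL1* stood at 4550, 4580 and 4650 CPM in the wild type and at 496, 449 and 375 CPM in *uvr8* (log2 fold change -3.39, SE 0.168, adjusted p = 8.61e-16), and *PAL2* at 3220, 3290 and 3280 CPM and at 275, 256 and 204 CPM (-3.74). The next enzyme, *C4H* (-3.07), and the sinapate glucosyltransferase *UGT84A2* (-3.9) were lower too. The wild-type libraries agreed closely here, and the groups were separated by far more than their spread.

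UV repair genes divided into those that responded and those that did not pass. Of 11 tested, 4 were lower and 0 higher (6.04% and 6.4% over all genes), with a median of only -0.29. *CRY3*, a cryptochrome of the DASH type with photolyase activity, was at 268, 233 and 240 CPM in the wild type and at 31.1, 25.3 and 34.1 CPM in *uvr8* (log2 fold change -3.03, SE 0.117, adjusted p = 2.48e-18). The photolyases *UVR3*, for 6-4 photoproducts, and *UVR2*, for cyclobutane dimers, fell as well (log2 fold changes -2.96 and -2.37), *UVR2* from 54.3, 55.8 and 54.0 CPM to 9.04, 9.37 and 13.3 CPM. *DDB2*, which recognises damaged DNA, fell by 2.27. The excision repair genes *UVH3* (-0.77) and *CHR8* (-0.29) were lower by less than 2-fold. Of 6 genes of the DNA damage checkpoint, 1 was called lower, where 6.04% of all genes were. It was the cell cycle inhibitor *SMR5*, at 2.42, 2.58 and 2.06 CPM in the wild type and 0.494, 0.312 and 0.341 CPM in *uvr8*. *BRCA1* (0.11), used in repair of broken strands, did not pass.

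Chloroplast protection was lower in 8 of 9 genes and higher in 0 (6.04% and 6.4% over all genes), at a median of -1.67. Besides the *ELIP* genes, *GPX7*, a plastid glutathione peroxidase, went from 211, 187 and 200 CPM to 4.6, 4.48 and 4.35 CPM (log2 fold change -5.47, SE 0.196, adjusted p = 5.49e-19). *SIG5*, a sigma factor that directs the plastid RNA polymerase, went from 595, 607 and 522 CPM to 59.1, 65.0 and 65.1 CPM (-3.19). *PSBS*, which carries energy-dependent quenching in photosystem II, was lowered less, from 4370, 4000 and 4580 CPM to 1420, 1510 and 1430 CPM (-1.57). The ninth gene was also lower, by less than 2-fold (-0.64).

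**Figure D3:**
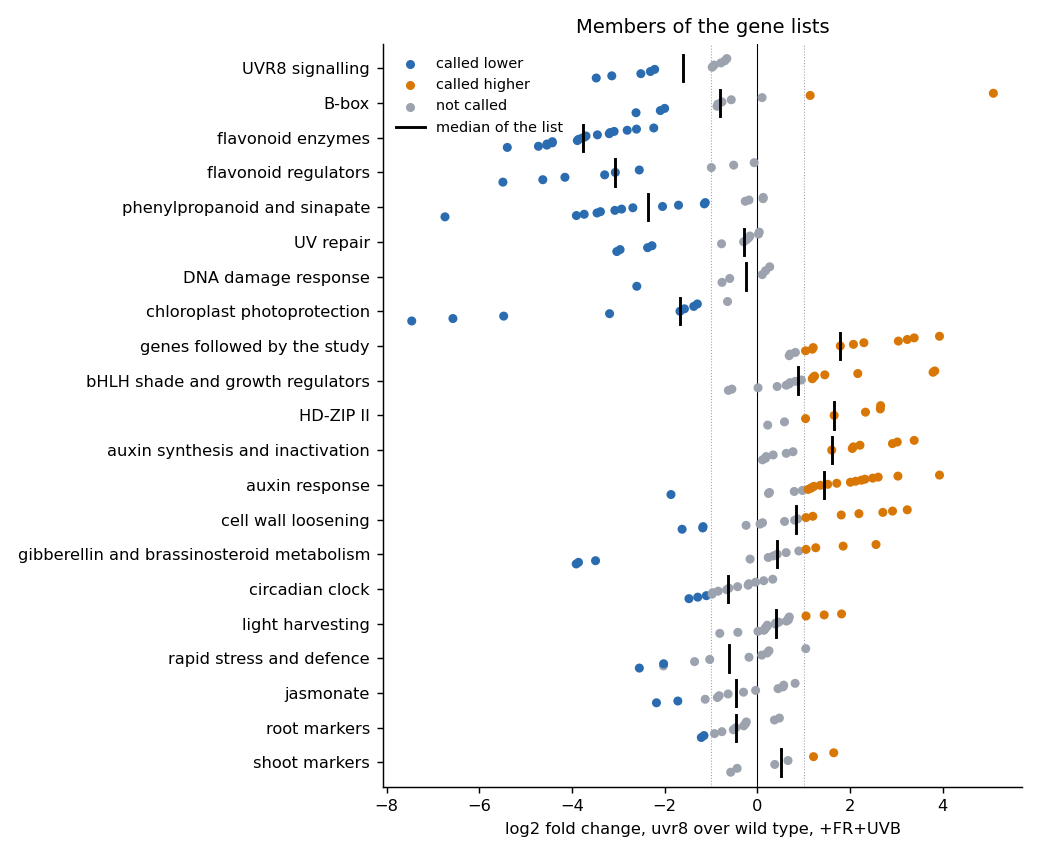
Log2 fold change of *uvr8* over wild type under +FR+UVB for every tested member of the 21 gene lists, 1 point per gene, with the list median as a black bar and dotted lines at 2-fold. Flavonoid, phenylpropanoid and chloroplast protection genes lie to the left, and shade, HD-ZIP II and auxin genes to the right.

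The shade genes ran the other way. The 13 genes that the study followed one by one, most of them shade markers and with the PIF genes *PIF4* and *PIF5* among them, were all higher in *uvr8* at an adjusted p under 0.05, and 10 of them by more than 2-fold (median 1.79, where 6.4% of all genes were called higher). *ST2A* and *FLP1* were selected by the study from these libraries, so their direction is not independent evidence. The study also presents *FHL*, *YUC8*, *GH3.3* and *PIL2* as examples of UV-B repression with or without a need for HFR1. For *FHL* it refers to its RNA-Seq data, so the direction of these genes may not be independent either. *IAA29*, an auxin response repressor, stood at 4.52, 5.45 and 3.41 CPM in the wild type and at 80.2, 73.0 and 51.2 CPM in *uvr8* (log2 fold change 3.93, SE 0.266, adjusted p = 8.06e-13). *XTR7*, a xyloglucan endotransglycosylase that loosens cell walls, stood at 7.08, 7.98 and 10.1 CPM and at 109, 55.5 and 73.7 CPM (3.24, SE 0.287). In both genes every mutant library lay far above every wild-type library.

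Genes of auxin metabolism among them were higher too. *YUC8*, an enzyme of auxin synthesis, rose from 6.29, 5.79 and 7.3 CPM to 31.4, 30.5 and 20 CPM (log2 fold change 2.08, SE 0.23, adjusted p = 1.86e-08). *GH3.3*, which conjugates auxin to amino acids, rose from 14.2, 12 and 9.68 CPM to 140, 176 and 59.1 CPM (3.39, SE 0.427), with replicate 3 the lowest mutant library. *ST2A*, a sulfotransferase of hydroxyjasmonate, rose from 13.9, 17.0 and 16 CPM to 123, 161 and 103 CPM (3.04). *FHL*, which helps carry phytochrome A into the nucleus, rose by 2.3 and *FLP1* by 1.79.

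The bHLH and homeodomain genes among the 13 had log2 fold changes of 1.21 or less. *PIL1* was at 27.7, 21.9 and 27.3 CPM in the wild type and at 62.7, 47.8 and 66.9 CPM in *uvr8* (log2 fold change 1.21, SE 0.171, adjusted p = 1.25e-06). *HFR1*, whose product binds PIFs and blocks them, was at 34.7, 36.7 and 35.0 CPM and at 56.0, 54.9 and 62.7 CPM, which missed the fold criterion (log2 fold change 0.71, SE 0.204, adjusted p = 0.0054). *PIF4* rose by 1.19, while *PIF5* (0.82) and *PIL2* (0.69) stayed under 2-fold, and the homeodomain gene *ATHB2* rose by 1.04. None of these pairs of groups overlapped, which held for 52.7% of all genes. Scaled to total counts alone, *HFR1* (1.00) and *PIF5* (1.11) passed the criterion.

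**Figure D4:**
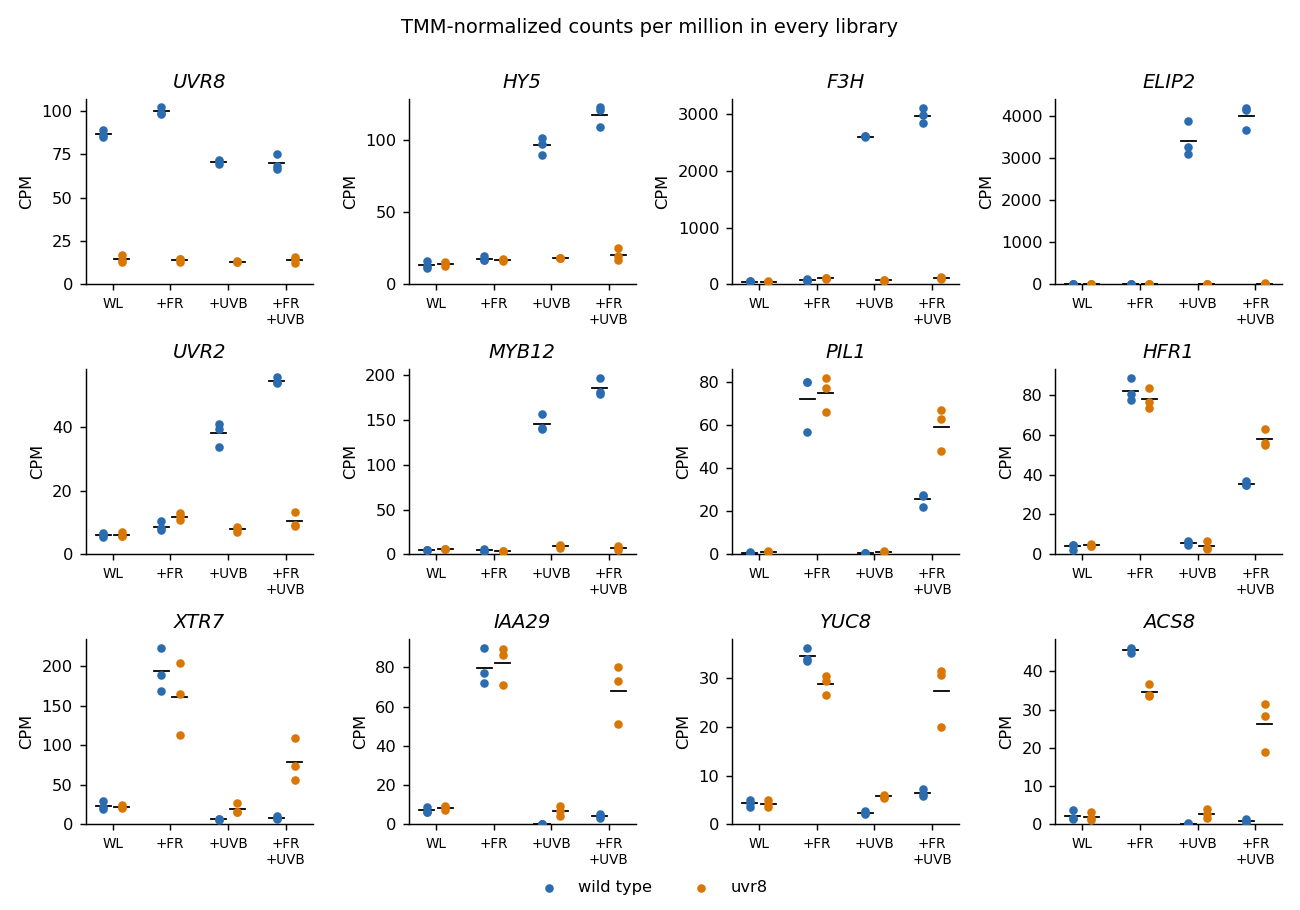
CPM in each of the 3 libraries of the wild type and of *uvr8* in the 4 light conditions for 12 genes, with the group mean as a bar and each axis starting at 0. *HY5*, *F3H*, *ELIP2*, *UVR2* and *MYB12* are high where the wild type received UV-B, and *XTR7*, *IAA29*, *YUC8* and *ACS8* are high with far-red except in the wild type under +FR+UVB.

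Wider families share members with those 13 genes, which are counted again here, and the counts are therefore given also without them. Of 16 bHLH regulators of shade and growth, 7 were higher and 0 lower (median 0.89), where 6.4% and 6.04% of all genes were. Of the 11 not among the 13, 5 were higher. *PAR1*, which lacks DNA binding and restrains growth, rose from 0.393, 0.618 and 0.379 CPM to 6.82, 8.75 and 4.61 CPM (log2 fold change 3.83), and *PRE6*, a small bHLH that promotes elongation, from 7.99, 5.39 and 7.03 CPM to 33.6, 30.6 and 27.6 CPM (2.17). *PIF3* (1.24) and *PAR2* (1.46) rose as well. *PRE5* had 4 counts in the wild type and 73 in *uvr8*, a ratio of 15 (5.6 to 56.4).

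Of the 7 HD-ZIP class II genes, 5 were higher and 0 lower (median 1.66), where 6.4% and 6.04% of all genes were. Without *ATHB2*, 4 of 6 were higher. *HAT2*, which responds to auxin, rose from 12.1, 14.2 and 11.3 CPM to 85.5, 83.5 and 67.9 CPM (log2 fold change 2.66, SE 0.162, adjusted p = 8.46e-14). *ATHB4* (2.66), *HAT3* (2.34) and *HAT1* (1.66) rose too, and *HAT14* (0.59) did not reach 2-fold. Members of this family serve as shade-induced regulators of leaf and hypocotyl growth.

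Of 13 genes of auxin synthesis and inactivation, 7 were higher and 0 lower (median 1.61), where 6.4% and 6.04% of all genes were. Without *YUC8* and *GH3.3*, 5 of 11 were higher and the median was 0.77. *GH3.5* rose from 7.27, 12.5 and 9.09 CPM to 80.7, 82.9 and 71.4 CPM (log2 fold change 3.02, SE 0.254, adjusted p = 8.64e-11). *YUC9* rose by 2.92, *GH3.2* by 2.22 and *GH3.1* by 2.05. Both the synthesis and the conjugation of auxin were thus represented. Of 20 auxin response genes, 15 were higher and 1, *IAA14* (-1.86), was lower (median 1.44), with 14 of 19 higher without *IAA29*. *IAA19* rose from 11.7, 9.1 and 7.63 CPM to 65.2, 59.5 and 34.9 CPM (2.49), *IAA6* by 2.61, *IAA5* by 2.25 and *SAUR10* by 3.04. *SAUR19* (2.32) belongs to a cluster of near-identical copies between which reads could have been split, so its own value is uncertain. The summed CPM of the auxin response list was 358 to 419 in the wild type and 613 to 904 in *uvr8*.

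Cell wall genes were mixed. Of 16 tested, 7 were higher and 3 lower (median 0.84), where 6.4% and 6.04% of all genes were. Without *XTR7*, 6 of 15 were higher. Apart from *XTR7*, *XTH19* rose from 11.3, 14 and 14.5 CPM to 119, 80.4 and 103 CPM (log2 fold change 2.92, SE 0.356, adjusted p = 1.05e-07). The expansin *EXPA11* rose from 13.7, 14.6 and 11.7 CPM to 93.2, 89.6 and 78.9 CPM (2.71), *XTH33* by 2.19 and *EXPA8* by 1.81. *XTH24* went from 410, 409 and 392 CPM to 168, 129 and 97.4 CPM (-1.62). Of the 3 calls in the lower direction, 1 was left without replicate 3 of *uvr8* and 1 with scaling to total counts.

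Growth hormone metabolism also divided. Of 13 genes for gibberellin and brassinosteroid metabolism, 3 were lower and 4 higher (median 0.43), where 6.04% and 6.4% of all genes were. The genes that fell were all gibberellin 2-oxidases, which inactivate the hormone: *GA2OX8* went from 25.8, 26.5 and 22.4 CPM to 1.98, 0.833 and 2.09 CPM (log2 fold change -3.91, SE 0.279, adjusted p = 2.8e-12), *GA2OX2* from 43.8, 35.1 and 43.8 CPM to 2.47, 3.8 and 2.22 CPM (-3.86), and *GA2OX1* fell by 3.49. The gibberellin synthesis gene *GA20OX1* rose from 0.328, 0.45 and 0.595 CPM to 2.47, 2.08 and 3.71 CPM (2.56). Of the brassinosteroid genes named, *BR6OX1* (1.85) makes the hormone and *BAS1* (1.26) inactivates it, and both were higher.

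The largest rises that were not in these lists fell on genes of other kinds. *ACS8*, an enzyme of ethylene synthesis, rose from 0.852, 1.46 and 0.433 CPM to 31.5, 28.3 and 18.8 CPM (log2 fold change 4.83, SE 0.376, adjusted p = 1.65e-11). *CYP78A7*, a cytochrome P450, rose from 0.131, 0.225 and 0.0541 CPM to 10.4, 9.48 and 3.76 CPM (5.78), and the zinc finger gene AT5G44260 from 0.852, 1.4 and 0.487 CPM to 28.2, 23.4 and 12 CPM (4.52). In these replicate 3 was the lowest mutant library. The wild-type values of *CYP78A7* lay near the detection floor, so its fold is imprecise. *ORP4C*, an oxysterol-binding protein, rose by 4.22, AT3G55240 by 4.18, *P1R3* by 4.14 and AT4G35720 by 4.12. AT2G47780 (4.4) and the protein phosphatase AT3G05640 (3.99) were instead highest in replicate 3, at 25.9 CPM against 12.9 and 14.2, and at 56.0 CPM against 11.7 and 19.5.

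Other lists held 2 or 3 calls each, in every case a larger share than over all genes (6.04% lower, 6.4% higher). Of 14 clock genes, 3 were lower and 0 higher (median -0.64), and 9 were lower at an adjusted p under 0.05. The genes called were *PRR9* (-1.47), *ELF4* (-1.29) and *RVE8* (-1.1), and *GI* (-0.98) and *LHY* (-0.96) lay at the edge. *GI* was called without replicate 3 of *uvr8* (-1.12). Of 20 light-harvesting genes, 3 were higher: *LHCB1.4* (1.82), *LHCB4.2* (1.44) and *LHCB2.2* (1.05). Their near-identical relatives make the split of reads between copies uncertain, and *LHCB2.2* lost its call without wild-type replicate 1 (0.99) or *uvr8* replicate 2 (0.97). Of 10 stress and defence genes, *PR5* (-2.55) and *ZAT12* (-2.02) were lower, and of 12 jasmonate genes *CYP94B3* (-2.18), which inactivates the hormone, and *JAZ9* (-1.71), a repressor, were lower. Calls in the other direction appeared under some alternatives. *WRKY40* of the stress list was called higher without replicate 3 of *uvr8* (1.28, adjusted p = 0.0489) and with scaling to total counts (1.32), and *JAZ10* was called higher without wild-type replicate 3 (1.14) and with that scaling (1.11). In the fit to the 6 libraries alone, *PR1* (-2.04), *WRKY30* (-1.37) and *ZAT10* (-1.04) were called lower as well.

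Markers of organs were compared because seedlings are a mixture. Of 11 root markers tested, 2 were called lower, where 6.04% of all genes were. *CASP2* (-1.21), which builds the Casparian strip of the root endodermis, was among them. The summed CPM of the list was 179 to 277 in the wild type and 134 to 187 in *uvr8*. The call of *CASP2* was lost without wild-type replicate 2 (-0.99) and with scaling to total counts (-0.92). Of 6 shoot markers, the stomatal lineage genes *EPF2* (1.65) and *TMM* (1.21) were higher, where 6.4% of all genes were, *TMM* not without replicate 3 of *uvr8* (0.94). *RBCS1A*, the small subunit of Rubisco, was at 28800, 25200 and 26300 CPM in the wild type and 19600, 20900 and 13500 CPM in *uvr8*. At an adjusted p under 0.05 alone, 4 shoot markers were higher and 2 lower. Under +FR 2 of the 6 were also called higher in *uvr8*, where 0.0717% of all genes were, and under +UVB 0 were. No root or shoot marker list was at 0 in any library. In such bulk samples fewer cells of a type and less RNA per cell cannot be told apart, and the part of organ composition in the other results was not tested.

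Promoter sequences of genes that moved together are shown because HY5 and the PIFs bind the same kind of element, with ACGT at its core. Windows of 250 bases before each gene start were read from the RefSeq annotation of TAIR10.1, and 20813 of the 20926 genes tested had one. The G-box CACGTG, which reads the same on both strands, was present in 10.2% of the promoters of genes lower in *uvr8*, 8.96% of those of genes higher, and 7.32% of all. CACGTT or its reverse AACGTG was present in 10.4%, 7.24% and 7.72%, and ACGT, which all of these contain, in 52.9%, 45.1% and 44.8%. A match is a description of the letters and shows no binding. Neither the lists that fell nor those that rose were uniform in it. Of the former, 6 of 18 flavonoid enzymes, 3 of 11 UV repair genes, 1 of 16 phenylpropanoid genes and 0 of 10 UVR8 signalling genes held a CACGTG. Of the latter, it was held by 2 of 16 bHLH genes, 1 of 20 auxin response genes and 0 of 16 cell wall genes, and 6 of 14 clock genes held it.

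For the flavonoid enzymes and the chloroplast protection genes, which fell, the called gene with the largest change that holds a CACGTG is printed for each list, 5′ to 3′ on the strand of the gene and ending at the base before its start, with CACGTG in capitals. These are the windows of *F3H* (chromosome 3, chr3:19024942-19025191, plus strand) and of *ELIP1* (chromosome 3, chr3:8085670-8085919, minus strand), both in TAIR10.1.
F3H: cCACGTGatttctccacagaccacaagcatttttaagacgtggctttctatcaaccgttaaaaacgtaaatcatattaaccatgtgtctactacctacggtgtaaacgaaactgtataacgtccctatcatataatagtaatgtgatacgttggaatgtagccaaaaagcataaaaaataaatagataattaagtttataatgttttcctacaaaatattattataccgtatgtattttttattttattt
ELIP1: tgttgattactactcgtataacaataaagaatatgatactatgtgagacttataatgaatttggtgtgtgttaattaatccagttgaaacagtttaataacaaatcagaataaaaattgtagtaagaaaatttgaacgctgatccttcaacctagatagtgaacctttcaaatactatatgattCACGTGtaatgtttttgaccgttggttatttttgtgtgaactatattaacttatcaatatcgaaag

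The same choice for the lists that rose gave *FHL* (chromosome 5, chr5:437115-437364, plus strand), with 2 matches, *GH3.2* (chromosome 4, chr4:17579368-17579617, plus strand) and *IAA19* (chromosome 3, chr3:5263751-5264000, plus strand). Each of these was the only called gene of its list that held a CACGTG.
FHL: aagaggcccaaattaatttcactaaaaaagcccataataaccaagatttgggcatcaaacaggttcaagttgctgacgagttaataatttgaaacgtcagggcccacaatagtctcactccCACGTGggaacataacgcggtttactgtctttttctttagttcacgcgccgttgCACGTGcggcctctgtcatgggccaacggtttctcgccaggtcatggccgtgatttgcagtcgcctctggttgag
GH3.2: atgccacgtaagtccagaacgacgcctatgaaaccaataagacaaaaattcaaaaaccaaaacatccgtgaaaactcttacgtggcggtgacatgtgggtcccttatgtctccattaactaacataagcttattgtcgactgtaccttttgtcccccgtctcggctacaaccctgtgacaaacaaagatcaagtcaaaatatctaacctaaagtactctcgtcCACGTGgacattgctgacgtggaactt
IAA19: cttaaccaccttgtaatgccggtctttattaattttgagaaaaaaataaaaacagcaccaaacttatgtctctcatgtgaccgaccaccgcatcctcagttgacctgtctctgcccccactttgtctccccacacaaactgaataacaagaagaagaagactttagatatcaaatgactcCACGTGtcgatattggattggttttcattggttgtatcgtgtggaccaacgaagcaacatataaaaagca
Each printed gene was chosen for holding the element, so these windows do not show how common it was among genes that fell or rose.

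Most genes that differed under +FR+UVB also differed under +UVB, in libraries the first comparison did not use. Of the 1264 genes lower under +FR+UVB, 875 (69.2%) were called lower under +UVB, which is 70.8% of the genes lower there, and of the 1340 higher, 757 (56.5%) were called higher, which is 51.1%. In direction alone, 1218 of the 1264 and 1315 of the 1340 had the same sign under +UVB. The medians of the genes that fell were -1.53 under +FR+UVB and -1.33 under +UVB, and of those that rose 1.4 and 1.13. Under +FR only 5 of the genes that fell and 12 of those that rose were called the same way. All 18 flavonoid enzymes were called lower under +UVB as well (median -3.97), as were 8 of the 9 chloroplast protection genes (-1.66). Of the 13 genes followed by the study 8 were called higher there (1.26), and of 7 HD-ZIP II genes 6 (1.39). Of 20 auxin response genes 7 were higher, against 15 under +FR+UVB. Of 10 B-box genes 5 were lower and 0 higher, against 3 and 2. Of 10 stress and defence genes 2 were lower and 3 higher (median 1.27), against 2 and 0 (-0.6). Over all genes, 5.91% were called lower and 7.08% higher under +UVB. Gene by gene, 0 members of the auxin response list and 0 of the stress and defence list passed the test between the 2 UV-B lights. Of the 13 genes followed by the study 0 passed it, and 1 B-box and 1 HD-ZIP II gene did. A difference of whole lists between the lights was not tested. *OCT1*, an organic cation transporter, was the only gene with opposite calls in the UV-B lights (-2.06 and 1.63, adjusted p = 0.114 for the difference), and was named after its values were seen.

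Few genes passed the test of whether the genotype difference depended on the added far-red. Tested directly, +FR+UVB against +UVB, 7 genes (0.0335%) had a more negative and 41 (0.196%) a more positive genotype difference, while 2344 genes had an unadjusted p under 0.05. Of these 48, 31 kept their sign and were larger under +FR+UVB, 12 changed sign and 5 were smaller. The count was unstable: leaving out 1 library at a time gave 0 to 36 and 9 to 60 genes. The 41 became 15, 10 and 19 without wild-type +FR+UVB replicates 1, 2 and 3, and 26 without *uvr8* +FR+UVB replicate 1 or 2. They became 12, 12 and 20 without wild-type +UVB replicates 1, 2 and 3 and 9 without *uvr8* +UVB replicate 1, while the 7 became 36 without *uvr8* +UVB replicate 3. DESeq2 gave 39 and 92 genes. On the second principal component of all 36 libraries, replicates 1 and 2 of *uvr8* under +UVB stood at 67.8 and 64.2 and replicate 3 at 21.8, and the part of that spread in these counts was not tested.

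**Figure D5:**
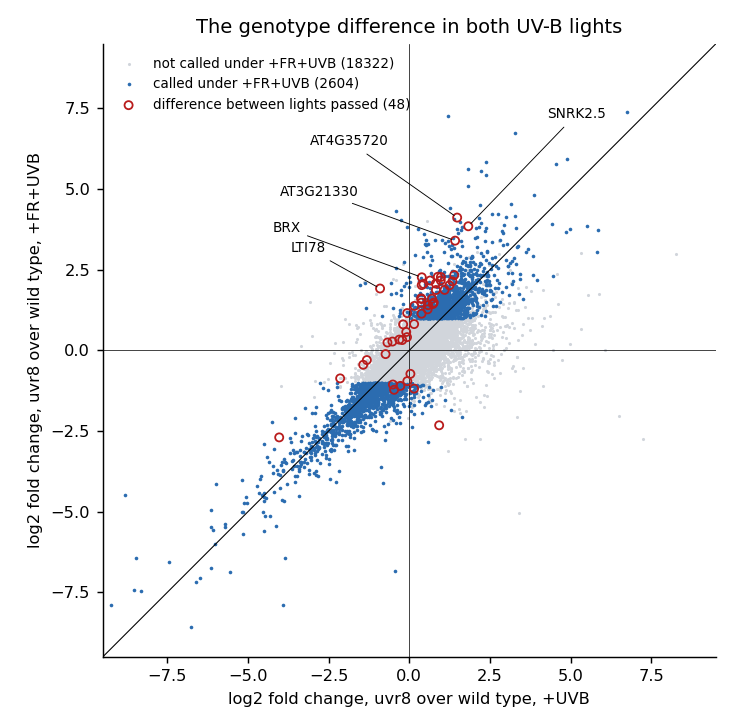
Log2 fold change of *uvr8* over wild type under +FR+UVB against that under +UVB for 20926 genes, with the line of equality. Genes called under +FR+UVB are in blue, and the 48 whose genotype difference itself differed between the lights are ringed, most of them above the line.

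Among the genes of that test with the largest positive difference, AT3G21330, a bHLH gene, was at 3.6, 2.87 and 4.11 CPM in the wild type and 41.0, 37.2 and 34.0 CPM in *uvr8* under +FR+UVB, and at 1.72, 1.24 and 1.96 CPM and 4.77, 4.47 and 4.01 CPM under +UVB. Its genotype difference was 3.4 and 1.42 on the log2 scale, a difference of 1.98 (SE 0.33, adjusted p = 0.00649). *SNRK2.5*, a kinase of the family that acts in stress signalling, differed by 2.02 (adjusted p = 0.0136), with 35.1, 36 and 19.4 CPM in *uvr8* under +FR+UVB and 8.21, 8.66 and 7.97 CPM under +UVB. *BRX*, a growth regulator first known from roots, differed by 1.88 and AT4G35720 by 2.63 (2.41 without replicate 3 of *uvr8*, adjusted p = 0.0572). *LTI78*, a cold and drought response gene, differed by 2.82 (adjusted p = 0.0471), but replicate 3 of *uvr8* stood at 746 CPM against 174 and 296, and without it the difference was 2.03 (adjusted p = 0.167). AT3G21330 was the only one of the 5 to pass whichever library was left out.

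In the negative direction the largest difference was that of AT1G49900 (-3.25, adjusted p = 0.0389), which lay under the count minimum for named genes and was singled out after its values were seen. AT1G49900 stood at only 1.18, 1.12 and 0.919 CPM in the wild type and 0.148, 0.364 and 0.128 CPM in *uvr8* under +FR+UVB. Of the genes above that minimum, AT5G51680, annotated as a hydroxyproline-rich glycoprotein, was at 4.59, 5.79 and 3.68 CPM in the wild type and 2.57, 2.08 and 1.54 CPM in *uvr8* under +FR+UVB, with a genotype difference of -1.19 there and 0.15 under +UVB (adjusted p = 0.0471 for the difference). *HCT*, an enzyme of lignin precursor synthesis, differed by -0.75 (-1.22 and -0.47), the aldehyde oxidase *AO1* (AT5G20960) by -0.82, the dirigent-like gene AT3G55230 by -0.89 and the bHLH gene AT5G48560 by -0.76. Each of these 5 missed the threshold when some single library was left out, with *HCT* at an adjusted p of 0.0799 without wild-type +FR+UVB replicate 2. Without replicate 3 of *uvr8* under +FR+UVB the adjusted p was 0.113 for AT5G51680, 0.0875 for AT3G55230, 0.0798 for AT5G48560 and 0.0531 for *HCT*. *PRE6* (adjusted p = 0.0389) and *HAT3* (adjusted p = 0.0479) of the shade lists also passed this test, both with a larger rise under +FR+UVB.

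A last comparison set *uvr8* under +FR+UVB beside the wild type under +FR, to see how far the mutant with UV-B resembled a wild type without it. It shares the *uvr8* libraries with the main comparison, so the values are only set side by side. Here 168 genes were lower (0.803%) and 149 higher (0.712%), but single libraries moved these counts. They were 85 and 93, 89 and 102, and 248 and 158 without wild-type +FR replicates 1, 2 and 3. Without *uvr8* +FR+UVB replicates 1, 2 and 3 they were 237 and 154, 104 and 99, and 95 and 182, so that the balance of lower and higher genes depended on the library left out. Of the genes called lower under +FR+UVB, 1205 (95.3%) were not called in this comparison, 30 were lower and 29 higher, and of those called higher 1297 (96.8%) were not called, 32 were higher and 11 lower. None of the 18 flavonoid enzymes was called, at a median of 0.39, and of the 13 genes followed by the study 1 was lower, at a median of -0.34.

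The gene of that list which stayed lower was *XTR7*, at a mean of 193 CPM in the wild type under +FR and with a log2 fold change of -1.29 (adjusted p = 0.00273). *IAA29* (-0.22), *YUC8* (-0.34) and *PIL1* (-0.29) did not pass. *HFR1* was 0.5 lower on the log2 scale and did not pass either (adjusted p = 0.134). Some genes of the UV-B response remained above the wild type under +FR: *ELIP2* by 1.8 (adjusted p = 0.000281), *UGT84A1* by 1.35 and AT2G22590 by 2.15, from means of 6.53, 1.72 and 0.572 CPM. *HY5* (0.22) and *F3H* (0.48) did not pass. A p that misses the threshold does not show that the levels were equal.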

How the data were processed

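Arabidopsis seedlings were profiled by single-end stranded mRNA sequencing. The authors mapped reads to TAIR10 with TopHat2 2.0.13, checked them with FastQC 0.10.2 and counted reads per gene with HTSeq 0.6.1 (strand setting not given in the sources used here). They deposited raw counts and a second table of normalized signal, which are counts scaled with TMM factors of edgeR 3.4.2. Raw counts were analysed here, and the normalized signal that the authors deposited served only to choose the genes tested and to check the scaling. Groups came from the sample labels.

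Counts of all 36 libraries were fitted in 12 groups with the quasi-likelihood test of edgeR 4.0.16 (R 4.3.3, limma 3.58.1), with TMM factors and Benjamini-Hochberg adjustment over all genes. Genotype differences were called past 2-fold with adjusted p under 0.05, and differences between lights at adjusted p under 0.05 alone. On simulated counts for the comparison under +FR+UVB, with 20926 genes, 197 of 200 changed genes were recovered and 3 unchanged genes were called. The changed genes were well counted and differed by more than 2-fold, and all other genes were set equal between groups. Recovery of genes with few counts, or with changes close to 2-fold, was not simulated. The 6 libraries compared held 17449559 to 21074908 counts, and intervals and floors cover counting error only.

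Genes named were *UVR8*, genes the study names, the 10 largest falls and rises with non-overlapping libraries and a mean of at least 50 counts, 5 genes per direction of each test between lights, at most 6 members per list and genes called alike in all lights. The comparison, the 21 lists and the tests were chosen with earlier results of these data known. Alternatives were scaling to total counts, DESeq2 1.42.0, the likelihood ratio test, other filters, fewer libraries, a replicate block, other fold minima and leaving out each library. Fits to nuclear genes only and without libraries of the other lights were added after seeing the data. Promoter windows and gene positions came from RefSeq TAIR10.1. A few items of the lists and 1 promoter sequence are not reported here.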

Additional observations from a re-analysis of the deposited data

Results flagged for a closer look

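The genotype difference was larger or smaller under +FR+UVB than under +FR at many genes, by the test of that difference in edgeR. It was more negative at 3555 genes and more positive at 3440. Among the named genes, the log2 genotype difference changed by -8.21 for *ELIP2*, -7.27 for *UGT84A1*, -6.99 for AT2G22590, -6.97 for *SDH2-3* and -6.6 for *ELIP1*. It changed by 6.26 for *CYP78A7*, 5.25 for AT5G44260, 5.23 for *ACS8*, 4.61 for *P1R3* and 4.61 for *FAR1* (AT5G22500, a fatty acid reductase).

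Between +FR+UVB and +UVB the same test found 7 genes with a more negative and 41 with a more positive genotype difference. The named genes changed by -1.33 (AT5G51680), -0.89 (AT3G55230), -0.82 (*AO1*, AT5G20960), -0.76 (AT5G48560) and -0.75 (*HCT*) in the negative direction. In the positive direction they changed by 2.82 (*LTI78*), 2.63 (AT4G35720), 2.02 (*SNRK2.5*), 1.98 (AT3G21330) and 1.88 (*BRX*).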

How the results depend on the processing

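Under the alternatives, 2683 of 2720 values for 160 named genes under +FR+UVB kept their direction and side of the criteria, 14 fell below them, 23 rose above them and 0 changed sign. With scaling to total counts, 812 genes were lower and 2481 higher under +FR+UVB, 770 and 2507 under +UVB, 1898 and 6193 in the test against +FR, and 2 lower in the test against +UVB. With no fold minimum the counts were 4875 and 4959 under +FR+UVB, 4987 and 5176 under +UVB, 601 and 593 against the wild type under +FR, and 21 higher in WL and 33 higher under +FR. With a minimum of 1.5-fold they were 2551 and 2869, 2698 and 3045, 308 and 293, 19 and 29. DESeq2 gave 32 and 33 genes under +FR, and 39 and 92 in the test against +UVB. The likelihood ratio test gave 41 and 42, and 28 and 77. With 24 libraries, 6 genes were higher in WL, and 2 and 23 passed the test against +UVB. Leaving out 1 library gave 1190 to 1347 lower and 1266 to 1345 higher under +FR+UVB, 6 to 11 and 5 to 9 in WL, 8 to 19 and 8 to 17 under +FR, 0 to 36 and 9 to 60 in the test against +UVB, and 85 to 248 and 93 to 182 against the wild type under +FR. Where fewer libraries or another fold minimum did not set the count by construction, the cause was not tested.

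With a replicate block, 1270 genes were lower and 1344 higher under +FR+UVB. The deviations of same-numbered samples from their group means correlated at -0.0646, 0.126 and 0.121, and those of the other pairs at -0.167 to 0.105. With 3 libraries a group, these values cannot show whether same-numbered samples came from a shared sowing. Depth limits the genes near 3 counts, whose ratios have wide intervals.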

Other observations

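A pair of gene lists was drawn up after the values had been seen and carries no test of its own. Over all genes, 6.04% were called lower and 6.4% higher under +FR+UVB. Of 13 genes of the methyl cycle, which supplies methyl groups for phenylpropanoids among other products, 5 were lower in *uvr8* under +FR+UVB and 0 higher (median log2 fold change -0.83). *MS2*, a methionine synthase, was at 4020, 4350 and 3920 CPM in the wild type and at 303, 297 and 366 CPM in *uvr8* (-3.67), and *SAHH2*, which clears the by-product of methylation, was at 3470, 3420 and 3520 CPM and at 598, 556 and 684 CPM (-2.5). Of 18 genes of the shikimate pathway and phenylalanine synthesis, 13 were lower and 1, *CM3* (1.08), was higher (median -1.78). *CM1*, a chorismate mutase, went from 579, 549 and 533 CPM to 59.7, 56.6 and 58.6 CPM (-3.25). The arogenate dehydratase *ADT4* (-3.01) and *DHS1* (-2.87), which opens the shikimate pathway, were lower too.

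Phytochrome genes were also singled out after their values were seen. *PHYA* was at 68.9, 71.4 and 78.7 CPM in the wild type and at 300, 280 and 340 CPM in *uvr8* in the combined light (log2 fold change 2.07, and 0.82 under +UVB, with an adjusted p = 0.000468 for the difference in edgeR's test). *PHYB* differed by -0.11 under +FR+UVB and by -0.73 under +UVB (adjusted p = 0.000468).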
